A study of Mus musculus with 24 samples.

Results

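Prdm16 encodes a zinc finger transcription factor with a PR domain. It is best known for setting the brown fat cell fate and for maintaining haematopoietic and neural stem cells, and its protein works with corepressors such as Ctbp1 and Ctbp2 and with the histone methyltransferase Ehmt1. The dentate gyrus, the tissue measured here, is a region of the hippocampus in which neural stem cells go on producing neurons in adult life. DNA methylation of a promoter often goes with silencing, whereas gene bodies are usually methylated.

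The Prdm16 locus was taken as the annotated gene (ENSMUSG00000039410, GRCm38, minus strand of chromosome 4, 154316125 to 154636873) with 2 kb on either side. It held 284 of the 694379 CpGs of the methylation table, each CpG being one cytosine of one strand. The locus was chosen because many of its CpGs differed in opposite directions between young and aged mice and between aged mice of the 2 housing types, so those differences are a description here, and nothing is read from any count of them at the locus. The mice were female C57BL/6JRj. Young STD mice (n = 8) were 3 months old and lived in standard housing. Aged STD mice (n = 8) were 17 months old and lived in standard housing. Aged ENR mice (n = 8) were 17 months old and had spent the last 3 months, from an age of 14 months, in an enriched environment. Methylation was measured by reduced representation bisulfite sequencing, which reads the ends of DNA fragments cut by the enzyme MspI at CCGG. The unit is the percentage of methylated reads at a CpG in one mouse, and the read depth behind a single value, above the coverage minimum the authors set, is unknown.

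All 284 CpGs lay at a CG of the GRCm38 sequence on the strand given, and all lay at most 75 bp from the MspI end of their fragment. They fell on 74 MspI fragments of 70 to 421 bp and represented 253 of the 5157 CG dinucleotides of the locus. A CpG had a value in 9 to 23 of the 24 mice (median 14), and no CpG had a value in all 24. A mouse had a value at 124 to 248 of the 284 CpGs (median 159). The replicate numbered 5 of the aged STD group stood apart in the whole table, with a mean methylation of all intronic CpGs of 44.7% against 57.3% to 65.7% in the other 23 mice. Several results are given with and without it, and others, such as the comparison of strands, only with it.

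The MspI fragment with the most CpGs of opposite differences lay in intron 1 (chr4:154634991-154635284, GRCm38, plus strand). Its sequence is shown because 4 of its 7 measured CpGs had such differences. Without aged STD replicate 5 none of the 4 had them. Those 4 are in capitals.

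intron 1 fragment: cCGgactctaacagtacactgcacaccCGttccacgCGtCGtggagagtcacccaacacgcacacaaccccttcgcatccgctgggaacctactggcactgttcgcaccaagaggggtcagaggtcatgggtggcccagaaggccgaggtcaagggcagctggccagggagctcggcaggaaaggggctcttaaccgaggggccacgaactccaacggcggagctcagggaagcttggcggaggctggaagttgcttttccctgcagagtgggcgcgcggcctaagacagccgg

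The 5 CpGs with the largest opposite differences among those with at least 4 mice in each group were all measured on the minus strand. They are shown in the plus strand sequence of GRCm38, with the CG in capitals, because their values carry the description of single CpGs.

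intron 1, chr4:154627077-154627106: ttgccccaggacagCGtggtctctttgtgg
intron 1, chr4:154620760-154620789: gagatttgggggctCGtttcctggggtaca
intron 1, chr4:154581409-154581438: actccccaagtgccCGgggaagccagggtt
intron 3, chr4:154473890-154473919: atgccccgagggcaCGgaggacaggagcag
intron 3, chr4:154423003-154423032: gctgggggagacttCGcttggaaggttaga

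The start of Prdm16 was almost free of methylation in every mouse, and its introns had intermediate mean levels. The 27 CpGs within 1 kb of the start of the long transcripts had a mean of 1.76%, and the highest of them had a mean of 9.99%. Averaged per mouse, they had a lowest, median and highest value of 0%, 0.965% and 6.05% in young STD. The corresponding values were 0%, 1.13% and 3.99% for aged STD and 0%, 1.64% and 4.31% for aged ENR, so the groups overlapped. The CpG nearest to the start site of both long transcripts was 154637093 on the plus strand, 227 bp upstream, shown with its CG in capitals.

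start of Prdm16, chr4:154637079-154637108: tcgtcgctcccgccCGgggcccgcaccctg

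It read 0% in all 4 young STD and all 3 aged STD mice with a value and in 3 of 4 aged ENR mice, and 29.2% in aged ENR replicate 4. In contrast, the 6 CpGs near the start of a processed transcript inside the gene (154528891 to 154529017) had a mean of 93.0%, and the 12 CpGs in exon 9 (154341443 to 154341605) had a mean of 97.6%. Exon 13 was an exception among the exons, with a mean of 5.56% over 4 CpGs (154328699 to 154328752). Methylation thus differed between stretches of the gene body, as the profile along the gene shows.

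**Figure D1:**
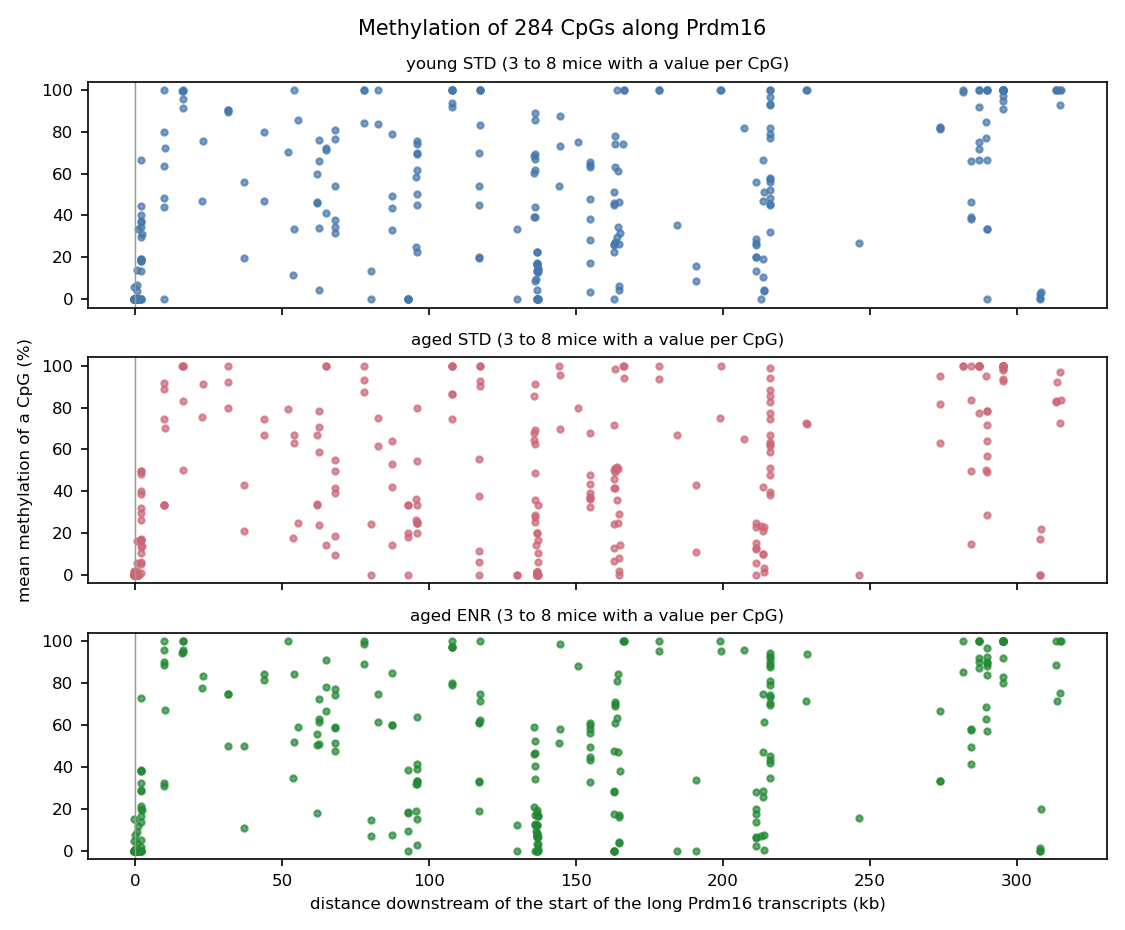
Mean methylation (%) of each of the 284 CpGs, 1 panel per group, against the distance (kb) downstream of the start of the long Prdm16 transcripts. CpGs within 1 kb of the start, at the grey line, have means of at most 9.99% over all mice, and those of exon 9 have a mean of 97.6%. The panels show group means. Near the start, 154636077 stands higher in young STD, where replicate 7 read 100% and replicates 1 and 2 read 0%.

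Within the introns, intron 2 had the lowest methylation of those with many CpGs, with a mean of 35.4% over 54 CpGs. Intron 1 had a mean of 49.6% over 86 CpGs and intron 3 a mean of 49.5% over 65 CpGs. The few CpGs of the introns nearer to the end of the gene were higher, with 79.6% over 12 CpGs in intron 5 and 71.0% over 9 CpGs in intron 6. Split wherever neighbouring CpGs lay over 1 kb apart, the locus formed 47 clusters, of which 7 had a mean under 20%, 16 a mean over 80% and 24 a mean in between. The cluster with the most CpGs away from the start lay in intron 2 (154499758 to 154501099), with a mean of 22.1% over 31 CpGs.

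These levels were compared within mice. CpGs within 1 kb of any Prdm16 start site (33 CpGs) averaged 19.0% ± 12.5 (SD, n = 24 mice) and the other 251 CpGs 50.8% ± 3.47. The pooled start sites were lower in 23 of 24 mice, with a mean difference of -31.8 points, although the 6 CpGs at the internal start were above the gene body. With the start site of the long transcripts alone, the difference was -50.2 points, and with a distance of 2000 bp it was -16.5 points. The 223 intronic CpGs of Prdm16 over 1 kb from any start site averaged 48.1% ± 4.67 (SD, n = 24), against 60.3% ± 3.90 for the 139618 such CpGs of the whole table. Prdm16 introns were lower in 24 of 24 mice, with a mean difference of -12.2 points ± 3.83. Large opposite differences, on which the locus was chosen, occur mostly at CpGs of intermediate mean, so the intronic levels, and with them those of the gene body, are not independent of that choice and all differences between these sets are given as a description, with no test. With CpGs over 500 bp from a start site the difference was -5.71 points.

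Prdm16 was also compared with 2 other long genes, Camta1, a calmodulin-binding transcription activator, and Cux2, a homeobox factor of neurons. Intronic methylation was lower at Prdm16 than at Camta1, with a mean difference of -9.84 points ± 5.36 (SD, n = 24), in 23 of 24 mice. Restricted to CpGs that at least 18 mice covered, the difference from Camta1 was -4.86 points, with at least 5 mice per group it was -4.74 points and with CpGs over 500 bp from a start site -6.03 points. It was lower than at Cux2, with a mean difference of -8.06 points ± 9.07, in 19 of 24 mice, and the difference was -14.2 points with at least 5 mice per group. Prdm16 introns held fewer values at exactly 0% or 100%, with 66.5% ± 13.3 of values per mouse against 77.2% ± 9.14 over all introns, lower in 23 of 24 mice. Among CpGs with a mean of 20% to 80%, 52.8% of all values at Prdm16 were at 0% or 100%, against 56.1% in the table. The share at Prdm16 ranged widely between mice, from 35.9% to 86.3%.

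**Figure D2:**
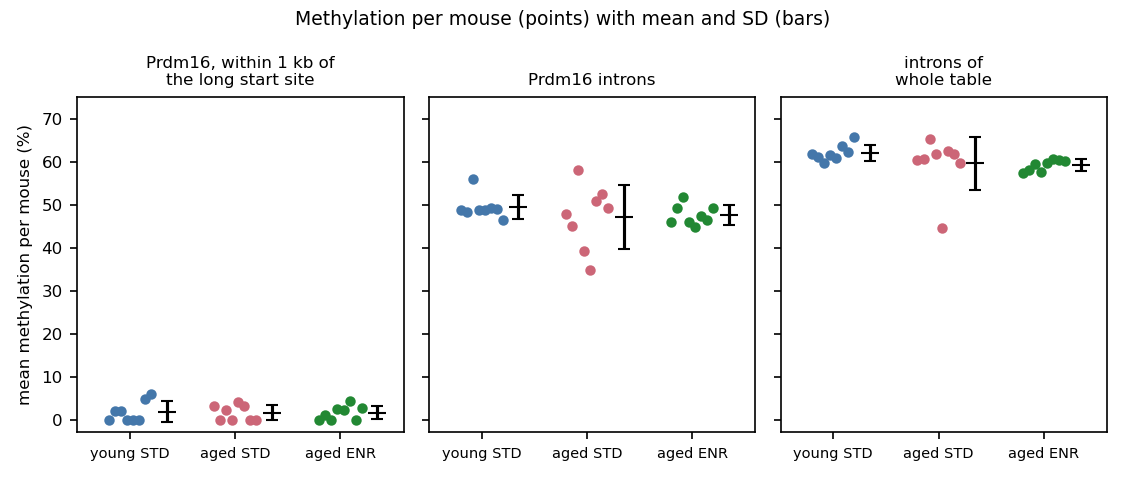
Mean methylation per mouse (%, points) within 1 kb of the start of the long Prdm16 transcripts, in Prdm16 introns and in all introns of the table, by group, with the mean and SD of the 8 mice as bars. Prdm16 introns average 48.1% and all introns 60.3% over the 24 mice, and the lowest point in both is aged STD replicate 5.

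The groups overlapped in their overall level at the locus. The lowest, median and highest mean methylation of Prdm16 introns were 46.5%, 48.8% and 56.1% among young STD mice. They were 34.7%, 48.5% and 58.1% for aged STD, and 44.9%, 47.0% and 51.8% for aged ENR. Without aged STD replicate 5, the aged STD mice ranged upwards from 39.3% and their mean changed from 47.2% to 49.0%. Over all 284 CpGs, the median difference was 0 points both for aged STD minus young STD and for aged ENR minus aged STD, the same as over the whole table.

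Single CpGs differed between group means far more than the locus did. Of the 284 CpGs, 75 differed by over 25 points between young STD and aged STD mice, 42 of them lower and 33 higher in aged STD. Of all CpGs 9.16% differed so, 5.01% lower and 4.15% higher. Between aged STD and aged ENR mice 60 differed by over 25 points, 30 in each direction. Of all CpGs 8.33% differed so, 3.82% higher and 4.51% lower in aged ENR. In 31 CpGs both differences exceeded 25 points and were opposite in sign, against 3.49% of all CpGs. The locus was chosen on this contrast, so nothing is read from the excess. Both differences also share the aged STD mice, so that a high or low aged STD mean gives opposite signs by itself. Among CpGs with a mean of 20% to 80% over all mice, where large differences are more frequent, 27 of 130 Prdm16 CpGs had opposite differences against 13.5% of the table.

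The 31 CpGs all lay in introns, on 21 MspI fragments. In 15 of them aged STD was lower than young STD and aged ENR higher than aged STD, and in 16 it was the reverse. Few mice stood behind these values: in 17 of the 31 CpGs at least 1 group had only 3 mice, 14 had at least 4 mice in each group and 1 had at least 5. The median SD within a group at these CpGs was 31.3 points. The individual mice of young STD and aged STD did not overlap at 3 of the 31, against 5.17% of all CpGs with opposite differences. Those of aged STD and aged ENR did not overlap at 2, against 4.65%.

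A CpG of intron 1 (154627092) had the largest sum of the differences. It read 0% in young STD replicates 2, 4, 6 and 8. In aged STD it read 100%, 30.9%, 68.0% and 100% in replicates 1, 5, 6 and 8. In aged ENR it read 100%, 28.6%, 0% and 0% in replicates 3, 4, 7 and 8. Young STD lay below every aged STD mouse, and the aged ENR mice spread over the whole range. The group means were 0%, 74.7% and 32.1%.

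The CpG 154473905 in intron 3 read 100%, 0%, 0% and 3.85% in young STD replicates 1, 2, 6 and 8. In aged STD it read 100% in replicates 2, 3 and 5, 57.1% in replicate 6 and 0% in replicate 8, and in aged ENR it read 0% in replicates 1, 3, 5 and 7. Every aged ENR mouse was at 0%, which 1 aged STD mouse and 2 young STD mice also showed. The CpG 154423018, also in intron 3, read 0% in young STD replicates 6 and 8 and 100% and 86.7% in replicates 3 and 7. It read 0% in aged STD replicates 1, 2, 4 and 5 and 50% in replicate 6, whereas aged ENR read 100% in replicates 2, 6 and 8 and 0% in replicate 7. One mouse of each aged group lay apart from the rest of its group.

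The CpG 154620775 in intron 1 was nearly fully methylated except in 3 mice. It read 95.8% to 100% in 6 young STD mice (median 100%) and 70.7% to 100% in 7 aged ENR mice (median 100%). In aged STD it read 0% in replicates 1 and 2 and 100% in replicates 6 and 8, so the group mean of 50% describes no mouse. The CpG 154581424, also in intron 1, read 100% in young STD replicates 1, 4 and 6, 40.0% in replicate 5 and 88.2% in replicate 7. In aged STD it read 100% in replicate 3 and 0% in replicates 4, 5 and 6. In aged ENR it read 74.4%, 22.7%, 35.2%, 100% and 62.9% in replicates 2, 4, 5, 7 and 8. Aged STD replicate 5 gave a value at 4 of these 5 CpGs, all but 154620775. Without that mouse 266 CpGs kept at least 3 mice per group, and the locus held 61 CpGs with an aging difference, 53 with an ENR difference and 24 with opposite differences, in place of 75, 60 and 31.

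**Figure D3:**
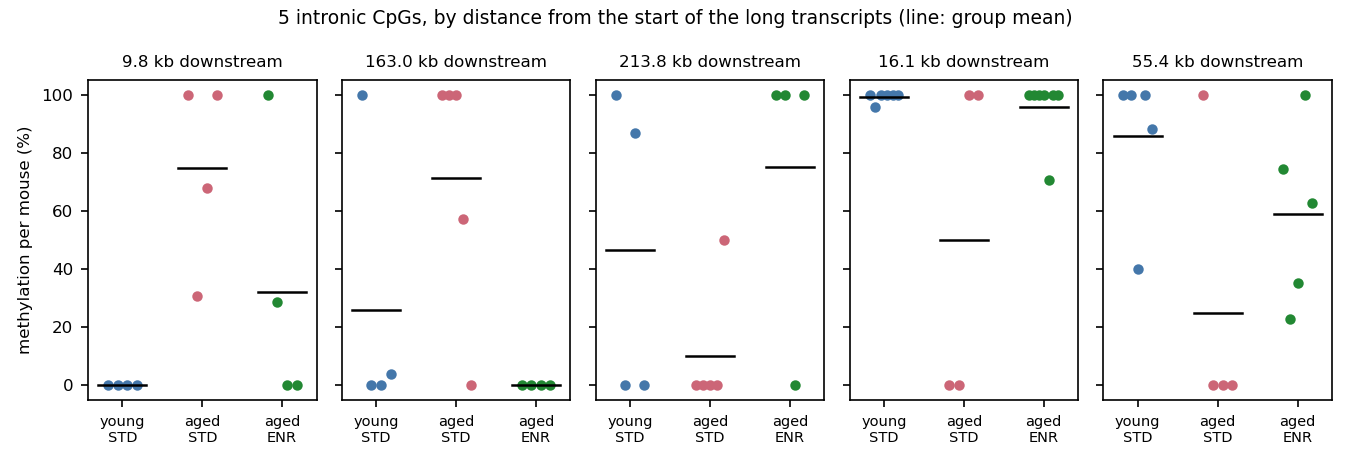
Methylation (%) of each mouse with a value at 5 intronic Prdm16 CpGs, by group, with the group mean as a line, each panel headed by its distance from the start of the long transcripts. Many points lie at 0% or 100% and the mean often falls between the points, as for the aged STD mice at 154620775 (16.1 kb), with mean 50% and values of 0% and 100%.

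The 4 CpGs in capitals on the intron 1 fragment were read in the same mice, except that 154635027 had no value in aged STD replicate 6. The first, 154634992, read 0% in young STD replicates 4 and 8 and 54.3% in replicate 5. In aged STD it read 100%, 97.7% and 100% in replicates 1, 2 and 5 and 0% in replicates 4, 6 and 7, and in aged ENR it read 0% in 4 mice and 8.33% in replicate 8. At 154635018, aged STD replicates 1, 2 and 5 again read 100%, 97.6% and 100%. At 154635027 replicate 2 read 0%, while replicates 1 and 5 read 100%. At 154635030 replicates 1 and 5 read 100%, replicate 6 read 90% and replicate 2 read 0%, and aged ENR replicate 2 read 100%, although aged STD replicate 6 and aged ENR replicate 2 were at 0% at the other capital CpGs they covered. Of the 3 CpGs of the fragment that had no opposite differences, aged STD replicate 1 read 100% at each one and replicates 2 and 5 read 0%. Neighbouring CpGs of a single mouse therefore differed by up to 100 points on 1 fragment. Aged STD replicate 5 read 100% at all 4 capital CpGs, and without it none of them had an aging difference over 25 points.

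Just inside the threshold lay 154501038 in intron 2, with differences of 25.1 and -43.7 points, and 154635030 in intron 1, with 30.2 and -26.7 points. Just outside lay 154437720 in intron 3, with -25 and 25 points, and 154352337 in intron 5, with -24.3 and 43.2 points. At 154437720 every mouse with a value read 100% except aged STD replicate 7, which read 0%, so that 1 mouse made both differences.

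No CpG of the locus passed limma at an adjusted p below 0.05 together with a difference over 25 points, for aging or for ENR, against 0.00475% of all CpGs for aging and 0.00432% for ENR. At an unadjusted p under 0.05, 10 of the 284 CpGs passed for aging and 13 for ENR, against 2.23% and 1.9% of all CpGs. The locus was chosen on these differences, so nothing is read from these counts. The count of CpGs passing limma at the locus was also 0 on the log2(percent + 1) scale, which called 87 CpGs of the table for aging and 79 for ENR. It was 0 with a variance trend (15 and 20 in the table) and with a replicate block (260 and 213). With at least 5 mice per group limma called 0 of 223328 CpGs of the table for either contrast, so a 0 at the locus was fixed there.

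Both strands of the same CG gave a further measure. In 31 CGs both strands were measured, giving 277 pairs of values in the same mouse. The strands differed by a mean of 23.2 points, and by over 25 points in 98 pairs (35.4%), against 9.51 points and 14.2% over the 58462 such CGs of the table. Among CGs with a mean of 20% to 80% on a strand, the mean was 33.1 points at Prdm16 (20 CGs) and 33.1 points in the table. Such CpGs made up 45.8% of the locus and 16.4% of the table. Mice of the same group differed pairwise at a CpG by a mean of 24.7 points at Prdm16 and 12.4 points in the table, and by 38.9 and 38.8 points among CpGs with a mean of 20% to 80%.

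The strands also differed in the direction of the group difference. Of 17 CGs with an aging difference over 25 points on at least 1 strand, the strands had the same sign in 9 and opposite signs in 8. Both strands passed 25 points in the same direction in 1. Over the table, 2928 of 6311 such CGs had the same sign, 2769 opposite signs, and 388 passed on both strands in the same direction, so the counts at Prdm16 are not read as particular to it. The pair whose strands differed most in the aging difference was 154541000 on the plus and 154541001 on the minus strand in intron 1, shown with its CG in capitals.

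intron 1, chr4:154540986-154541015: ccgcctccatcgccCGgggcaggcaggcac

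Its plus strand had means of 22.7% in the young mice, 54.4% in aged STD mice and 31.7% in aged ENR mice, and its minus strand 61.7%, 25% and 2.5%, in the same order. The means of the strands rest on partly different mice, and 8 mice had a value on both. Of 8 CGs with opposite aging and ENR differences on at least 1 strand, 1 had them on both, against 97 of 2359 over the table. In 6 of the 8 both differences had the same signs on either strand, against 723 of 2359 over the table, and nothing is read from this count either.

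**Figure D4:**
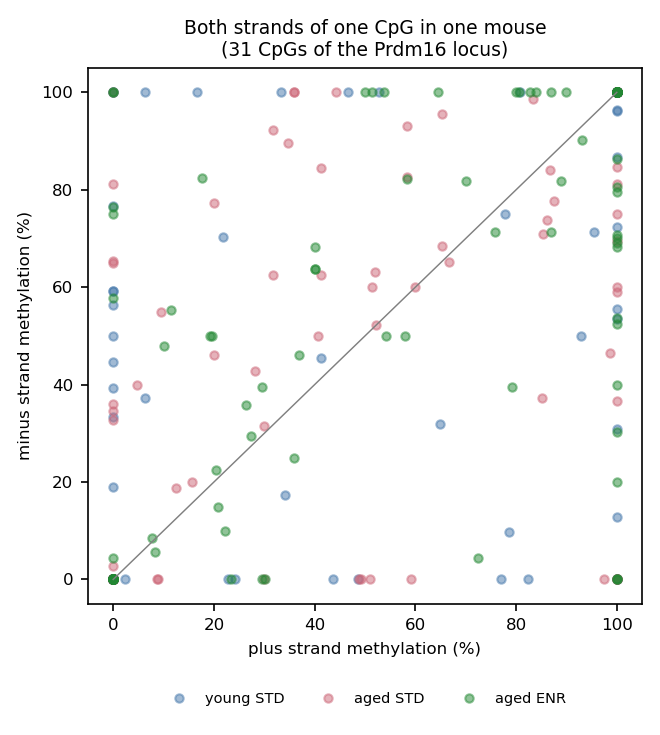
Methylation (%) of the minus strand against the plus strand for each of the 31 CGs measured on both strands, 1 point per CG and mouse (277 points, many overlapping), coloured by group. The line marks equal values; 98 points differ by over 25 points.

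The genes related to Prdm16 were examined in the same way. The 13 other members of the family analysed (Prdm1, Prdm2, Mecom, Prdm4, Prdm6, Prdm8 to Prdm15) held 740 CpGs, and the 11 partners (Ctbp1, Ctbp2, Ehmt1, Cebpb, Pparg, Ppara, Ppargc1a, Zfp516, Med1, Ebf2 and Ski) held 720. None of these CpGs passed limma for aging or ENR at an adjusted p below 0.05, where the table's shares of 0.00475% and 0.00432% leave little to call among 1460 CpGs. At an unadjusted p under 0.05, 24 passed for aging (1.64%, against 2.23% of all CpGs) and 15 for ENR (1.03%, against 1.9%). Opposite differences over 25 points occurred at 2.84% of the family CpGs and 2.22% of the partner CpGs, against 3.49% of all CpGs. Mecom, the closest relative of Prdm16 in the family, had 7 of 202 CpGs with opposite differences, a share of 3.47%.

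The genes whose methylation followed that of Prdm16 most closely over the 24 mice, as mean deviation of their CpGs from the all-mice mean, were Gm26624 (r = 0.67), C230088H06Rik (r = 0.67), Prkg1 (r = 0.56), Notch2 (r = 0.53) and Lrrfip1 (r = 0.52), out of 717 genes with at least 100 CpGs. The values of all genes come from the same 24 libraries, and the first 2 genes overlap each other. Without aged STD replicate 5 the values were 0.57, 0.56, 0.51, 0.52 and 0.47. Over the 717 genes r ran from -0.47 to 0.67 with all 24 mice. The median was 0.07 with aged STD replicate 5 and 0.01 without it. The genes named are the highest of 717 values, so nothing is read from them.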

How the data were processed

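The authors deposited one table of methylation percentages per CpG and strand for 24 mice (mm10, that is GRCm38), the percent of methylated reads at each position. Per the labels, reads were trimmed with Trim Galore 0.4.0 and cutadapt 1.8.1, aligned with Bismark 0.16.1 and processed with methylKit 1.5.2; the published methods name other versions of Trim Galore and Bismark. The authors kept CpGs above a coverage minimum with a value in at least 3 mice per group. Read counts per CpG were not used here, so the depth above that minimum and the counting error are unknown. Values read in PCR amplified libraries without molecular identifiers are not independent molecules.

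Groups came from the sample titles. Differences are of group means. A CpG was counted when a difference exceeded 25 points. limma 3.58.1 (R 4.3.3) was fitted to all 694379 CpGs with group means, moderated variances and Benjamini-Hochberg adjustment, and called CpGs at an adjusted p below 0.05 with a difference over 25 points. The procedure was tested on simulated data. Permutation tests with 100000 sign flips were run on 5 differences within mice, but these are reported as values only, since the levels are not independent of how the locus was chosen. Samples are separate mice, and the labels give no batch. Alternatives were a minimum of 5 mice, other thresholds, medians, averaged strands, fragments, leaving out each mouse and, for limma, a replicate block. The labels do not say whether equal replicate numbers pair the mice. Deviations of same-numbered mice had a mean r of 0.00 (-0.04 to 0.02) over the 8628 CpGs with values in all mice, so no pairing showed there. The mice were treated as unpaired except in the replicate block. MspI fragments and sequences came from GRCm38 and transcripts from GENCODE M21.

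Named CpGs were those nearest the long transcript starts, the 5 with the largest opposite differences and at least 4 mice per group, those just inside and outside 25 points, and all CpGs of the fragment with the most opposite differences. No CpG had a value in all mice, so none was named for that. The locus, gene lists and named CpGs were chosen with earlier results of these data known. One gene of the list of related genes is not reported here.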

Additional observations from a re-analysis of the deposited data

Results flagged for a closer look

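In 48 groups of 4 to 8 mice examined, 17 held a mouse far from the others by Dixon's criterion, which chance gives in about 1 of 20 groups of normal values, and many groups here hold only values of 0% and 100%. Aged ENR replicate 1 had a mean of 60.0% at CpGs near Prdm16 start sites against a group median of 22.2%. In that mouse the 6 CpGs at the internal start read 100% and the covered CpGs at the start of the long transcripts read 0%, so its mean follows which CpGs were covered. Young STD replicate 3 had a mean intronic level of 56.1% against 48.8%. On the intron 1 fragment, aged STD replicate 1 read 100% at 154635025, 154635049 and 154635064 against a median of 0%, aged ENR replicate 1 read 100% at 154635049 against 0%, aged ENR replicate 2 read 100% at 154635030 against 0%, and aged ENR replicate 8 read 8.33% at 154634992 against 0%. In intron 3, young STD replicate 1 read 100% at 154473905 against 1.92%, aged STD replicate 6 read 50% and aged ENR replicate 7 read 0% at 154423018 against 0% and 100%, and aged STD replicate 7 read 0% at 154437720 against 100%. In the rest of intron 1, young STD replicate 2 read 95.8% and aged ENR replicate 5 read 70.7% at 154620775 against 100%, and young STD replicate 5 read 40% and aged STD replicate 3 read 100% at 154581424 against 100% and 0%. Near the start, aged ENR replicate 4 read 29.2% at 154637093 against 0%. The causes were not tested.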

How the results depend on the processing

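Requiring at least 5 mice per group left 86 of the 284 CpGs, of which 12 had an aging difference over 25 points, 6 an ENR difference and 1 opposite differences. At a threshold of 30 points, 49 of the 284 had an aging difference, 42 an ENR difference and 20 opposite differences, and at 20 points 94, 84 and 40. With group medians the counts were 70, 66 and 40, and with averaged strands 61, 51 and 24 of 253. Counted as MspI fragments, 41 held a CpG with an aging difference and 31 one with an ENR difference. Shares over all CpGs under these settings are not given, so nothing is read from these counts or the next ones. Leaving out each mouse in turn left 242 to 276 CpGs with at least 3 mice per group. It gave 54 to 74 CpGs for aging, 49 to 66 for ENR and 23 to 35 with opposite differences. It gave differences of -33.5 to -30.8 points for start sites against the gene body, -12.6 to -11.8 for Prdm16 against all introns, -11.2 to -10.3 for the share at exactly 0% or 100%, -10.3 to -9.40 against Camta1 and -8.76 to -7.24 against Cux2. The limma count was 0 at Prdm16 and at the related genes under every alternative and with each mouse left out. The replicate block called 260 CpGs for aging and 213 for ENR in the table against 33 and 30 without it. With at least 5 mice per group limma called no CpG of the table, so the counts of 0 were fixed there. The 5 differences within mice kept their direction under every alternative run, and are descriptive, since the choice of the locus favours CpGs of intermediate mean. The start site of the long transcripts alone and the restriction to CpGs with a mean of 20% to 80% were chosen after seeing the data. The low number of mice per CpG and the unknown depth limit every value at a single CpG.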
